A study of Mus musculus with 8 samples.

Results

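Cytochrome c oxidase is complex IV of the mitochondrial respiratory chain, and several of its nuclear subunits exist as a broadly expressed isoform and an isoform of particular tissues. The 10 genes described here form 5 such pairs, namely Cox6b1 and Cox6b2, Cox6a1 and Cox6a2, Cox7a2 and Cox7a1, Cox8a and Cox8b, and Cox4i1 and Cox4i2. They were taken by symbol from the rows on primary chromosomes, 10 of the 52778 rows of the deposited table. Cox6b2 was chosen by its higher level in the knockout libraries of this same comparison, so it was selected on these TPM values, and its level and its share of the pair are described without a test. The other 9 genes were taken as its partner or as members of the other pairs. The question put to the data was how the share of the tissue isoform in each pair compared between knockout and control ventricles.

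The enzyme passes electrons from cytochrome c to oxygen and pumps protons across the inner mitochondrial membrane. Its catalytic core is made of subunits encoded on the mitochondrial chromosome, and the small nuclear subunits around that core bear on assembly, stability and regulation. Cox6a2, Cox7a1 and Cox8b are the isoforms of contractile muscle and come to prevail in the heart as it matures, Cox4i2 is known from lung and from cells at low oxygen, and Cox6b2 is known from testis and sperm.

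The tissue was mouse (Mus musculus) heart ventricle of embryonic day 11.5, sequenced as RNA in 4 conditional knockout (cKO) and 4 control libraries. The cKO embryos were homozygous for a floxed Rps19bp1 allele (fl/fl) and carried 1 copy of Xmlc2-Cre, which removes the gene in cardiomyocytes, so other cells of the ventricle keep it. The labels call the other group control and give no floxed allele or Cre status for it, and their genotype field names C57BL/6 wild type for all 8 libraries. The series text calls the 4 samples of each genotype biological replicates, and pooling of embryos is not mentioned. Cortical neurons are named in the extraction text, whereas all 15 cardiomyocyte markers examined were present in every library, with Myl2, a ventricular myosin light chain, between 8890 and 10413 TPM.

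Values are TPM, a transcript abundance per unit of length with a fixed total in every library, so levels can be compared between genes but the depth behind them is unknown. Below, ± is the SD over n = 4 libraries of a group, and a log2 change is cKO minus control on log2(TPM + 1). Rps19bp1 stood at 11.8 to 19.2 TPM in cKO and at 34.7 to 44.2 TPM in control (limma log2 change -1.37, adjusted p = 0.000508), which agrees in direction with the group labels. Mitochondrial rows took 13.2% to 16.2% of TPM in cKO and 11.4% to 12.2% in control. With a fixed total this lowers the nuclear TPM in cKO slightly, and the share of an isoform within its pair does not depend on it. In these bulk samples fewer cells of a type and less RNA per cell cannot be told apart.

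Promoter sequences from RefSeq (GRCm38.p6) were found for 7 of the 10 genes and were searched over the 250 bases before the annotated start. The stretch of that window outside GENCODE M21 exons is shown for the Cox6b pair, whose tissue isoform has the largest log2 change of the members, and for Cox7a1, the isoform of contractile muscle that rose. Each is written 5′ to 3′ on the gene's own strand, and capitals mark the CCAAT box in either orientation, a common promoter element bound by the factor NF-Y.
Cox6b2, chr7:4753095-4753225, minus strand: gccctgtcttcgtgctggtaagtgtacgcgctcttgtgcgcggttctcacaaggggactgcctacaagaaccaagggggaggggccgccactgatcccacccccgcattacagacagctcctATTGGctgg
Cox6b1, chr7:30626152-30626364, minus strand: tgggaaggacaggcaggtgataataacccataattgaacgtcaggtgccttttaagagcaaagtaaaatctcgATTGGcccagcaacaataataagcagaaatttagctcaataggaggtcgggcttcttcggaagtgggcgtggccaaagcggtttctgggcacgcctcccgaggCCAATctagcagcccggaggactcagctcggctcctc
Cox7a1, chr7:30183921-30184143, plus strand: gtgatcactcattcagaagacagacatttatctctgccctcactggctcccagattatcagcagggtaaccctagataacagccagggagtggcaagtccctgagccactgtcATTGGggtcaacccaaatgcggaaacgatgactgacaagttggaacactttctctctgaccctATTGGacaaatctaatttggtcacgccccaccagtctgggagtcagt

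All 3 windows of 250 bases held 2 CCAAT boxes, an element that 33.8% of 32851 mouse promoter windows of this length contain at least once and 5 of the 7 members contained. In Cox6b2 they ended 202 and 5 bases before the start, and the farther box lies outside the stretch shown, in the last exon of Fam71e2. In Cox6b1 and Cox7a1 the nearer box ended 70 bases before the start. The windows held 8 CpG dinucleotides in Cox6b2, 14 in Cox6b1 and 4 in Cox7a1, against a median of 6 over all windows. On both strands GGGCGG, the core of the GC box, was found in Cox6b2, Cox6a1 and Cox7a2 (32.7% of all windows), the E-box CANNTG in 5 members other than Cox6b2 and Cox6a1 (66.2%), and ACGTG in Cox8b (16.6%). The GGGCGG match of Cox6b2 ended 188 bases before the start, outside the stretch shown. Neither CCGGAAGT (2.88% of all windows) nor TATAAA (12.4%) was found in the 7 members. The consensus half-site of p53 occurred in 7.13% of all windows. Among the members it matched in Cox8a, 25 bases before the start, and those letters were not found in the other 6. A match is a run of letters and was not examined for binding.

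The isoforms of a pair share little transcript sequence. Among windows of 50 bases from GENCODE M21 transcripts, 0 were shared between the partners of any of the 5 pairs. Cox6a1 shared 9.16% of its windows with 1 other gene and Cox4i1 0.356%, and the other 8 genes shared 0. On the genome Cox4i2 overlaps Bcl2l1 and a predicted gene on the opposite strand, Cox6a2 overlaps Itgad on the opposite strand, and Cox7a2 overlaps Tmem30a on its own strand and a predicted gene on the other. Whether counting used strand is not given in the sources used here, and strand could not separate Cox7a2 from Tmem30a. Part of the reads of these 3 genes is therefore uncertain. Itgad stayed at or below 0.167 TPM, while Bcl2l1 lay between 31.0 and 40.2 TPM, above Cox4i2 in every library. Tmem30a lay between 72.0 and 83.9 TPM, so the uncertainty extends to the Cox7a2 level and the Cox7a1 share.

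**Figure D1:**
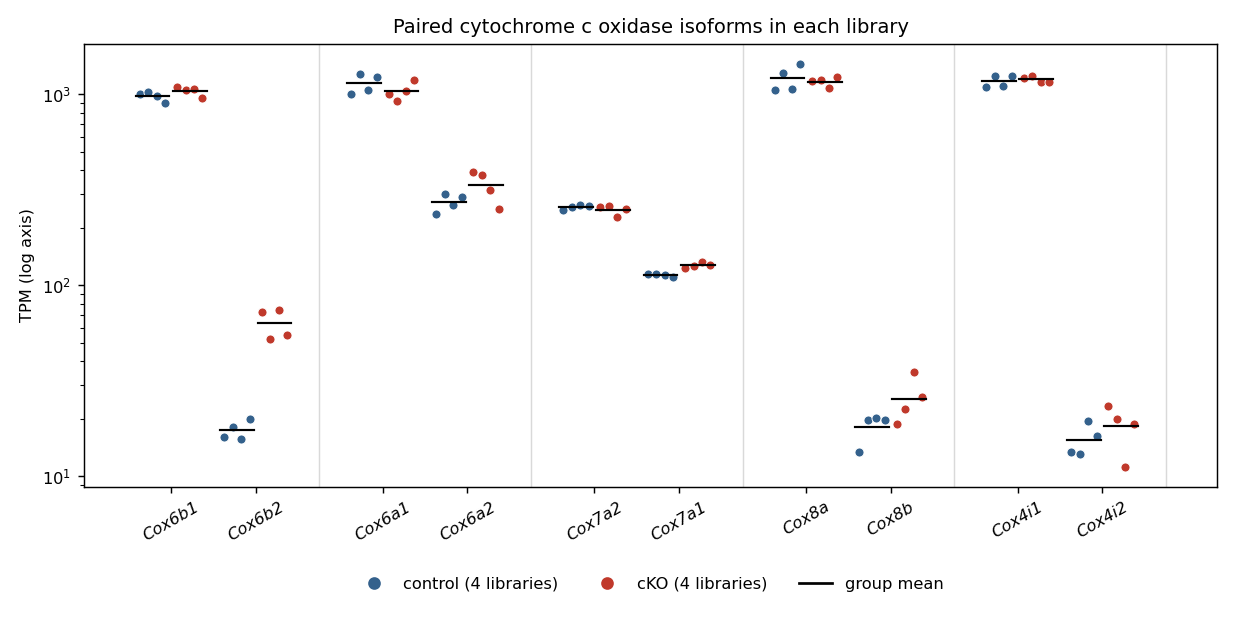
TPM on a log axis of the 10 isoforms in each of 4 control (blue) and 4 cKO (red) libraries, with black lines at the group means. The broad isoforms other than Cox7a2 lie near 1000 TPM in both groups, and Cox6b2 moves from 15.7 to 19.8 TPM in control to 52.4 to 74.2 TPM in cKO.

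The broad isoforms were the abundant ones. Over all 8 libraries the mean level was 1187 TPM for Cox8a, 1183 TPM for Cox4i1, 1088 TPM for Cox6a1 and 1010 TPM for Cox6b1, and the ranges of neighbours in this order overlapped. Clear of these in every library, Cox6a2 followed at 303 TPM and Cox7a2 at 252 TPM, again with overlapping ranges, and then Cox7a1 at 120 TPM, whose range met neither neighbour. Cox6b2 (40.4 TPM), Cox8b (21.9 TPM) and Cox4i2 (16.96 TPM) were the least abundant, and their ranges overlapped in that order. In the control libraries alone these 3 stood close together, with means of 17.4, 18.2 and 15.5 TPM. The Cox7a pair had the lowest broad isoform and the highest share of the tissue isoform.

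Cox6b subunits sit on the side of the complex that faces the intermembrane space, near the site where cytochrome c docks. Cox6b2 (chr7:4751792-4753094, minus strand, GRCm38), the isoform of testis and sperm, stood at 72.1, 52.4, 74.2 and 55.0 TPM in cKO libraries 1 to 4 and at 16.1, 18.0, 15.7 and 19.8 TPM in control libraries 1 to 4. Every cKO library lay above every control library, and the lowest cKO value was 2.64 times the highest control value. The means were 63.4 ± 11.3 TPM in cKO and 17.4 ± 1.91 TPM in control, a log2 change of 1.80 that ranked 4 among 15541 tested rows. The gene was chosen for this difference.

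Cox6b1 (chr7:30616971-30626114, minus strand), the broad partner, stood at 1092, 1051, 1070 and 949 TPM in cKO and at 1005, 1030, 983 and 903 TPM in control. The groups overlapped through cKO replicate 4. Its log2 change was 0.09 (95% interval -0.05 to 0.23, limma adjusted p = 0.457), so the interval allows a rise of at most 0.23 on that scale. The share of Cox6b2 in the summed Cox6b transcripts was 6.20%, 4.75%, 6.48% and 5.47% in cKO and 1.58%, 1.72%, 1.57% and 2.15% in control. The means were 5.73% ± 0.778 and 1.75% ± 0.272. Cox6b1 therefore remained the main transcript of its pair in all 8 libraries. In TPM, the mean of Cox6b2 was higher in cKO by 46.0 and that of Cox6b1 by 60.1, and the summed pair stood at 1104 ± 71.1 in cKO and 998 ± 53.8 in control.

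**Figure D2:**
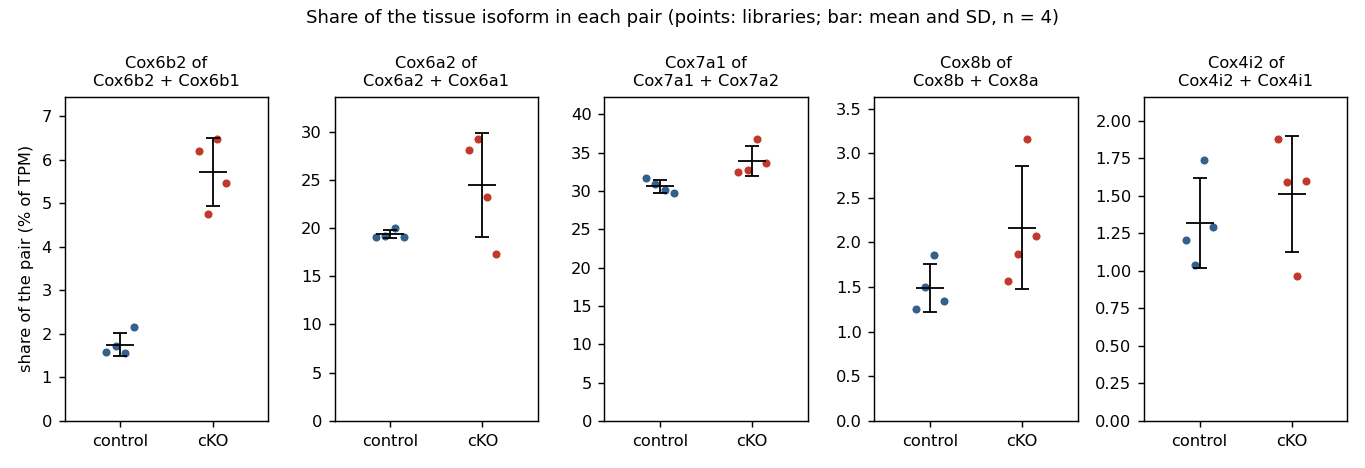
Share of the tissue isoform in the summed TPM of its pair, in percent, with a panel and a scale from 0 for each pair, a point for each library and bars for mean and SD (n = 4). The Cox6b2 and Cox7a1 shares of the groups do not overlap, the Cox6a2 share is tight in control (19.1% to 19.97%) and wide in cKO (17.4% to 29.2%).

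Cox6a subunits carry a site through which adenine nucleotides regulate the enzyme. Cox6a2 (chr7:128205435-128206366, minus strand), the isoform of contractile muscle, stood at 390, 380, 316 and 250 TPM in cKO and at 236, 301, 264 and 290 TPM in control. Of the cKO libraries 3 lay above all controls and replicate 4 lay within their range. The log2 change of 0.28 (95% interval -0.02 to 0.57) did not pass the threshold (limma adjusted p = 0.243). Without cKO replicate 4 it was 0.41 and passed (adjusted p = 0.0464). With any other single library left out it was 0.19 to 0.33 and did not pass (limma adjusted p 0.251 to 0.461). Cox6a1 (chr5:115345652-115348958, minus strand), the broad partner, stood at 1000, 919, 1044 and 1191 TPM in cKO and at 997, 1269, 1057 and 1226 TPM in control, and the groups overlapped (log2 change -0.13, 95% interval -0.35 to 0.09, limma adjusted p = 0.466).

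The Cox6a2 share was 28.1%, 29.2%, 23.2% and 17.4% in cKO libraries 1 to 4, and 19.1%, 19.2%, 19.97% and 19.1% in control libraries 1 to 4. In control the share had an SD of 0.421 percentage points, although the SD of each transcript was above 10% of its mean, and in cKO the SD was 5.41. The difference between the means of 24.5% and 19.3% did not pass an exact two-sided permutation test (p = 0.143). With cKO replicate 4 left out the difference grew from 5.13 to 7.50 percentage points, and p was then 0.0286. With any other single library left out the share did not pass (exact permutation p up to 0.314). For 8 libraries in groups of 4 the smallest p this test can give is 0.0286, and the shares of 4 pairs were tested. With 1 library left out there are 35 assignments, so the smallest p is again 0.0286 and the next value is 0.0571.

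Cox7a subunits lie at the contact between the enzyme molecules of a dimer and take part in joining it to other complexes. Cox7a1 (chr7:30184171-30186030, plus strand), the isoform of contractile muscle, stood at 123, 126, 132 and 127 TPM in cKO and at 115, 114, 113 and 110 TPM in control. The groups did not overlap, and the spread within each was small. Cox7a1 rose, with 127 ± 3.97 TPM in cKO and 113 ± 2.19 in control and a log2 change of 0.17 (95% interval 0.08 to 0.26, limma adjusted p = 0.0414), which is 1.12 times the control level. The call lies close to the threshold. It was kept under the 3 scalings that were tried (log2 change 0.19 to 0.22) and lost whenever any 1 of the 8 libraries was left out (0.15 to 0.18, adjusted p 0.0631 to 0.102). It was lost as well with the replicate number as a block (adjusted p = 0.113).

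Cox7a2 (chr9:79755241-79771422, minus strand), the broad partner, stood at 256, 260, 227 and 251 TPM in cKO and at 248, 255, 263 and 259 TPM in control (log2 change -0.05, 95% interval -0.16 to 0.07, limma adjusted p = 0.632), with overlapping groups. The Cox7a1 share was 32.4%, 32.7%, 36.8% and 33.6% in cKO and 31.7%, 30.9%, 30.2% and 29.8% in control. It was higher in all 4 cKO libraries than in any control, at means of 33.9% ± 1.99 and 30.6% ± 0.83 (exact permutation p = 0.0286). Without cKO replicate 3, the highest, the difference moved from 3.28 to 2.31 percentage points and p was 0.0571, as it was without control replicate 2, 3 or 4. The Cox7a1 shares of the groups did not overlap in any of these cases, and 0.0571 is the value next to the smallest possible. The summed pair was nearly level, at 376 ± 11.3 TPM in cKO and 369 ± 5.33 TPM in control (exact permutation p = 0.371). When libraries were rescaled without mitochondrial and globin rows, the sum was higher in cKO by 17.6 TPM, and p was 0.0286.

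Cox8 subunits are among the smallest of the complex and cross the inner membrane. Cox8b (chr7:140898942-140900446, minus strand), the isoform of contractile muscle in the mouse, stood at 18.7, 22.4, 34.99 and 25.9 TPM in cKO and at 13.4, 19.8, 20.1 and 19.6 TPM in control. Of the cKO libraries 3 lay above all controls and replicate 1 did not. Its log2 change of 0.44 (95% interval 0.04 to 0.85) did not pass after adjustment (limma adjusted p = 0.170, unadjusted 0.0328). Leaving out cKO replicate 3 gave 0.29, and leaving out cKO replicate 1 gave 0.58. Cox8a (chr19:7215158-7217616, minus strand), the broad partner, stood at 1175, 1181, 1072 and 1223 TPM in cKO and at 1054, 1297, 1061 and 1436 TPM in control, with overlapping groups (log2 change -0.05, 95% interval -0.27 to 0.17, limma adjusted p = 0.811). The Cox8b share was 1.57%, 1.87%, 3.16% and 2.07% in cKO and 1.26%, 1.501%, 1.86% and 1.35% in control. The means of 2.17% ± 0.694 and 1.49% ± 0.265 did not differ past the threshold (exact permutation p = 0.0571). Without cKO replicate 1, the lowest, the difference moved from 0.676 to 0.875 percentage points and p was 0.0286. Without cKO replicate 3, the highest, the difference was 0.344. No single omission other than that of cKO replicate 1 passed (exact permutation p up to 0.171).

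Cox4 is the largest nuclear subunit and a site of regulation by adenine nucleotides. Cox4i2 (chr2:152753916-152765039, plus strand), the isoform of lung and low oxygen, stood at 23.4, 20.01, 11.2 and 18.9 TPM in cKO and at 13.4, 13.1, 19.4 and 16.2 TPM in control. The highest and the lowest of the 8 values were both in cKO. Its log2 change was 0.20 with a wide interval (-0.24 to 0.64, limma adjusted p = 0.588). Leaving out cKO replicate 1 gave 0.075, and leaving out cKO replicate 3 gave 0.41. Cox4i1 (chr8:120668225-120674209, plus strand), the broad partner, stood at 1222, 1237, 1153 and 1161 TPM in cKO and at 1097, 1252, 1099 and 1240 TPM in control, with a log2 change of 0.03 (95% interval -0.11 to 0.17, limma adjusted p = 0.828). The Cox4i2 share was 1.51% ± 0.386 in cKO and 1.32% ± 0.299 in control (exact permutation p = 0.457). In cKO it ran from 0.966% to 1.88%, a range that held all 4 control values, and with single libraries left out the difference lay between 0.067 and 0.37 percentage points. The summed transcripts of the Cox6a, Cox8 and Cox4 pairs did not differ past the threshold either (exact permutation p = 0.657, 0.714 and 0.629).

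Of the 9 members other than Cox6b2, 1 was called by limma at an adjusted p under 0.05, where 6.4% of all 15541 tested rows were called. An unadjusted p under 0.05 was found for 2 of the 9 and for 23.7% of all tested rows. Both counts are near the background. Among all rows 2.16% were called higher in cKO and 4.23% lower (336 and 658 rows), a split that was 383 and 380 after quantile normalization, 383 and 419 after median-ratio scaling and 386 and 388 after rescaling without mitochondrial and globin rows. The groups did not overlap in 1 of these 9 members, Cox7a1, against 15.6% of all tested rows. The median log2 change of the 9 was 0.09, against -0.02 over all tested rows. Cox6b2 was chosen for its rise, so its sign carries no information here. The other 4 tissue isoforms each had a positive log2 change, as had 44.2% of all tested rows. The limma intervals of Cox6a2 (-0.02 to 0.57) and Cox4i2 (-0.24 to 0.64) spanned both signs. Those of Cox7a1 (0.08 to 0.26) and Cox8b (0.04 to 0.85) did not. Of the 5 broad isoforms Cox6a1, Cox7a2 and Cox8a had a negative log2 change. This pattern of signs is a description. Under quantile normalization Cox7a2 turned positive (0.01), without control replicate 4 Cox8a did (0.04), and Cox4i1 was at -0.0028 and -0.0016 without control replicate 1 and 3. Summed over the 4 tissue isoforms other than Cox6b2, mean TPM was 505 in cKO and 419 in control, most of it Cox6a2. Over the 5 broad isoforms it was 4683 and 4758.

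**Figure D3:**
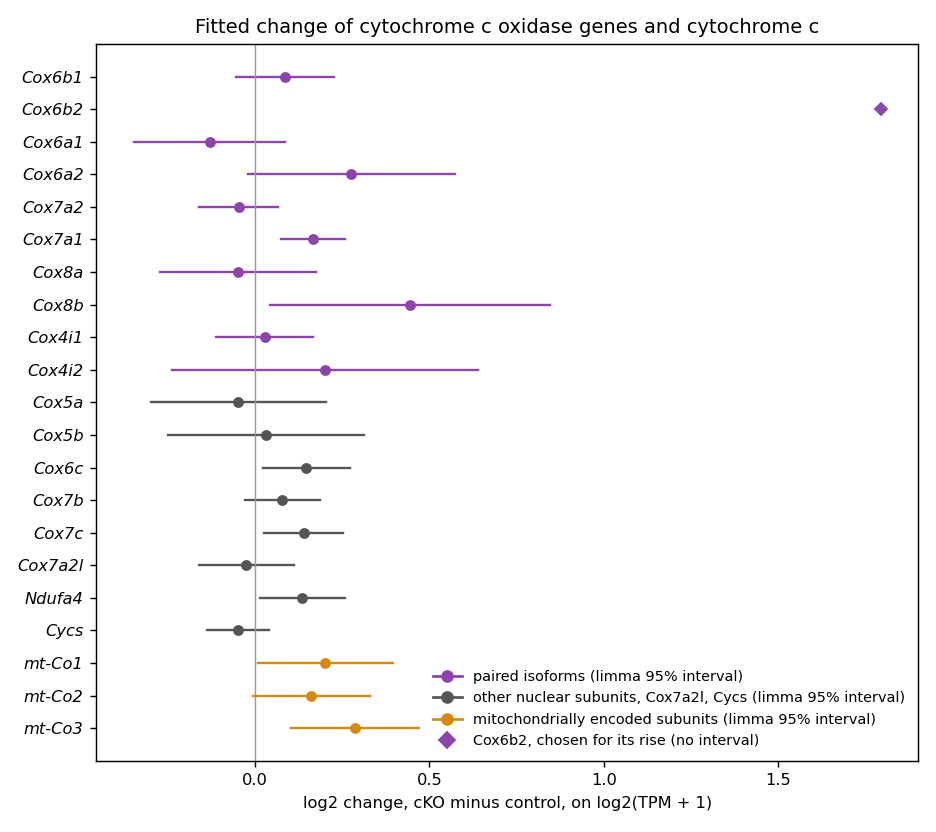
Fitted log2 change (cKO minus control, on log2(TPM + 1)) of the 10 isoforms (purple), the other nuclear subunits with Cox7a2l and cytochrome c (grey) and the mitochondrially encoded subunits (orange), with limma's 95% intervals. Cox6b2, a diamond at 1.80 without an interval, stands apart from the other 20 genes, whose changes lie between -0.13 and 0.44.

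The rest of the enzyme was read from lists of its genes. Of 8 other nuclear genes of the complex and its substrate (Cox5a, Cox5b, Cox6c, Cox7b, Cox7c, Ndufa4, the supercomplex factor Cox7a2l and cytochrome c, Cycs), 0 were called by limma and 3 had an unadjusted p under 0.05 (23.7% of all rows did). Their median log2 change was 0.06. Those 3 were Cox7c (715 ± 39.2 TPM in cKO and 648 ± 8.04 in control, limma adjusted p = 0.132), Cox6c (654 ± 44.0 and 589 ± 16.05, adjusted p = 0.145) and Ndufa4 (790 ± 29.7 and 720 ± 40.9, adjusted p = 0.170). Cox7c and Cox6c, both short subunits that cross the membrane, did not overlap between groups, which held for 15.6% of all tested rows. Each of these 2 genes passed under quantile normalization alone among 18 alternatives.

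The 3 catalytic subunits encoded on the mitochondrial chromosome did not overlap between groups, which held for 15.6% of all tested rows. By limma 0 of the 3 were called, and 2 had an unadjusted p under 0.05 (23.7% of all rows did). mt-Co1, which holds the site of oxygen reduction, stood at 23821 ± 1260 TPM in cKO and 20688 ± 394 TPM in control (log2 change 0.20, limma adjusted p = 0.194). mt-Co2, which receives electrons from cytochrome c, had a log2 change of 0.16 (adjusted p = 0.224) and mt-Co3 of 0.29 (adjusted p = 0.0687, and 0.0391 when only rows with a mean of at least 5 TPM were tested). Under quantile normalization these values were 0.00, -0.10 and 0.13. That scaling assigns the same value to the top-ranked row of each library, so it bears on such abundant rows by construction. The mitochondrial share of each library moves with these 3 rows, as given above.

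Of 30 assembly factors of the enzyme 29 were found in the table and 28 were tested. By limma 0 were called in either direction, and 3 had an unadjusted p under 0.05 (23.7% of all rows did). The median log2 change was -0.03. Those 3 were Tmem177 (-0.20, limma adjusted p = 0.149), Cmc2 (-0.19, adjusted p = 0.170) and Cox10 (-0.12, adjusted p = 0.182), which makes the heme A of the catalytic core. Sco2, a copper chaperone of the enzyme and a known p53 target, stood at 5.49, 4.61, 6.12 and 2.52 TPM in cKO and at 4.13, 3.17, 4.15 and 6.72 TPM in control. The groups overlapped, and its log2 change was 0.03 (95% interval -0.50 to 0.55, limma adjusted p = 0.963). Of 9 nuclear subunits of complex III, which hands electrons to cytochrome c, 0 were called by limma. Of these 9, 2 had an unadjusted p under 0.05 (23.7% of all rows did), and their median log2 change was 0.02. The smallest p belonged to Cyc1 (log2 change -0.25, limma adjusted p = 0.0586), Uqcr11 (0.14, adjusted p = 0.106) and Uqcrc2 (-0.09, adjusted p = 0.235). Cyc1 passed without cKO replicate 4 (-0.30, adjusted p = 0.0321) and among rows of at least 5 TPM (0.0499), and Uqcr11 after rescaling without mitochondrial and globin rows (0.18, adjusted p = 0.0491).

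Because Cox6b2 is a gene of testis and sperm, other germ cell isoforms of energy metabolism were examined. Of 13 such genes 12 stayed under 1 TPM in all 8 libraries and 2 were listed at 0 in all of them. They include Cyct, the testis cytochrome c, at 0.434 TPM or less, and Cox7b2 and Cox8c, the testis isoforms of 2 other subunits. Gapdhs, the sperm glyceraldehyde-3-phosphate dehydrogenase, was the 1 member tested, at 3.78 ± 0.235 TPM in cKO and 3.42 ± 0.196 in control (log2 change 0.12, limma adjusted p = 0.427). Of 17 germ cell markers 15 stayed under 1 TPM in all libraries, and 4 were listed at 0 (Dppa3, Stra8, Piwil1 and Hormad1). The other 2, Ddx4 and Tdrd1, lay above 1 TPM in all 8 libraries. Ddx4 stood at 1.62 to 2.28 TPM in cKO and 1.32 to 2.19 TPM in control. Tdrd1 stood at 1.05 to 1.299 TPM in cKO and 1.03 to 1.43 TPM in control. These 2 were tested, and 0 were called by limma (0 with an unadjusted p under 0.05). The summed level of the 17 markers was 5.25 to 5.81 TPM in cKO and 4.15 to 6.25 TPM in control. That sum was below the level of Cox6b2 alone in every library.

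Cox4i2 is known to rise with low oxygen together with the protease Lonp1. Of 20 tested hypoxia response genes 1 was called, Lonp1, which fell (89.0 ± 5.62 TPM in cKO against 105 ± 6.12 in control, limma adjusted p = 0.0419, log2 change -0.24). Its call was lost under 12 of 18 alternatives, over which the log2 change lay between -0.28 and -0.19. An unadjusted p under 0.05 was found for 6 of the 20, all with lower means in cKO (Lonp1, Ldha, Slc2a1, Egln1, Mxi1 and Pdk1). Over all tested rows 6.4% were called, 23.7% had such a p and 15.6% did not overlap between groups. Ldha, a lactate dehydrogenase subunit, stood at 1804 ± 52.0 TPM in cKO and 2144 ± 198 in control without overlap (adjusted p = 0.0756). The list had 6 genes with a positive and 14 with a negative log2 change, where 44.2% of all tested rows were positive. Its median was -0.04, against -0.02 over all tested rows, and 3 of its genes were called without control replicate 1.

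Markers of the cell types in the ventricle give the setting for these isoforms. Of 15 cardiomyocyte markers 1 was called lower, the transcription factor Nkx2-5 (log2 change -0.48, limma adjusted p = 0.0453, lost under 13 of 18 alternatives, over which it lay between -0.57 and -0.39), and 0 were called higher. Of the 15, 12 had a negative log2 change, and 4 had an unadjusted p under 0.05. Besides Nkx2-5 these were the sarcomere genes Myh6 (-0.18, adjusted p = 0.107) and Tnni1 (-0.16, adjusted p = 0.128), and Nppa, a natriuretic peptide gene, with a positive change (0.44, adjusted p = 0.0768), each without overlap between groups. Over all tested rows 44.2% had a positive change, 23.7% such a p, 4.23% were called lower and 15.6% did not overlap. The summed level of the 15 cardiomyocyte markers was 55448 to 58422 TPM in cKO and 55833 to 60680 TPM in control. Epicardial markers were called higher in 5 of 8 (summed level 361 to 458 TPM in cKO and 295 to 331 in control) and mesenchymal markers in 4 of 10 (875 to 1067 TPM and 587 to 767), where 2.16% of all rows were called higher. Of 10 pericyte and smooth muscle markers, the cells in which Cox4i2 is also known, 7 were tested and 2 called higher (696 to 818 TPM and 656 to 772). Those called were Notch3 (log2 change 0.53, limma adjusted p = 0.0282) and Mcam (0.26, adjusted p = 0.0395). The most abundant genes in this sum were Cnn1 (273 to 353 TPM over all libraries) and Mcam (248 to 343 TPM). The members of this list went both ways, with 4 of the 7 positive and 3 negative. Among the negative ones was Cspg4 (log2 change -0.20, limma adjusted p = 0.143). By limma 0 endothelial, macrophage and erythroid markers were called, and 5 of 10, 1 of 6 and 0 of 10 had an unadjusted p under 0.05. Their summed levels were 895 to 1009 TPM in cKO and 844 to 897 in control for endothelial markers, 12.2 to 37.2 and 12.2 to 25.9 for macrophage markers, and 1763 to 3774 and 1978 to 7183 for erythroid markers. Of 7 skeletal muscle genes 6 stayed under 1 TPM in all libraries, and Myod1, Myf5 and Myf6, regulators that define the lineage, were listed at 0. The seventh, the creatine kinase gene Ckm, which heart muscle also expresses, stood at 16.7 to 29.5 TPM in cKO and 10.7 to 23.3 in control (limma adjusted p = 0.387). With single libraries left out, calls ranged from 2 to 6 among epicardial, 3 to 5 among mesenchymal and 0 to 2 among pericyte and smooth muscle markers. With no filter on low values they were 1, 1 and 0, and the last was also 0 with the replicate block. Without cKO replicate 4, 3 macrophage markers were called, and 1 or 2 endothelial markers were called with a mean of at least 5 TPM, quantile normalization or array weights. The part of epicardial, mesenchymal and pericyte markers in the isoform values was not tested.

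The tested genes beside Cox6b2 on chromosome 7 were not called. Fam71e2, whose 3′ end lies 131 bp before the start of Cox6b2, stayed at or below 0.0251 TPM, and Il11 at or below 0.208 TPM. The nearest tested gene on that side was Tmem238, 31690 bp away, at 1.92 to 6.32 TPM in cKO and 4.25 to 6.19 TPM in control (log2 change -0.30, limma adjusted p = 0.534). On the other side, 4277 bp away, the histone methyltransferase gene Kmt5c stood at 55.1 to 63.5 TPM in cKO and 61.9 to 69.4 TPM in control (log2 change -0.15, adjusted p = 0.147). Its unadjusted limma p was 0.0248, and 23.7% of all tested rows had one under 0.05.

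Cox6b2 was compared over the 8 libraries with the tested genes on primary chromosomes, leaving out predicted-gene, RIKEN and pseudogene symbols. The 5 of these whose log2(TPM + 1) followed that of Cox6b2 most closely were Trp53inp1 (Pearson r = 0.994), Edn1 (0.993), Cdh11 (0.992), Gria3 (0.991) and Ccng1 (0.988). These values are a description over 8 libraries that fall into 2 groups, so any gene with a clear and even difference scores high, and likeness within a group is part of what chose these 5. Trp53inp1 and the cyclin Ccng1 are known p53 targets, Edn1 encodes the peptide endothelin, Cdh11 a cadherin of mesenchymal cells and Gria3 a glutamate receptor subunit. In cKO libraries 1 to 4 Trp53inp1 stood at 38.6, 35.4, 40.7 and 33.4 TPM. In control it stood at 11.9 to 13.3 TPM, and Ccng1 at 260 to 323 TPM in cKO and 119 to 126 TPM in control. Among the members, the highest cKO values were in libraries 1 and 3 for Cox6b2, 1 and 2 for Cox6a2 and 3 and 4 for Cox8b.

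**Figure D4:**
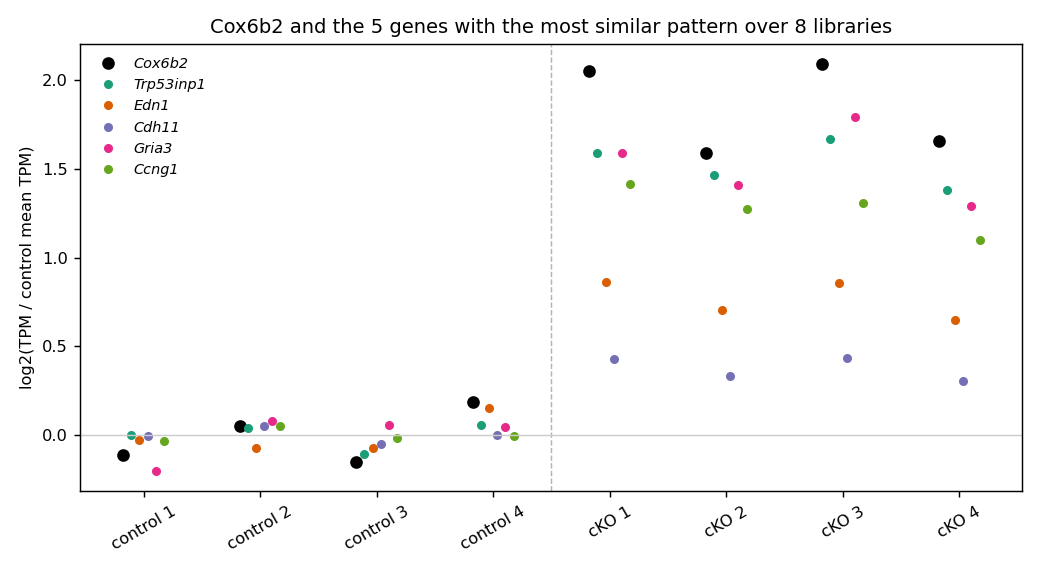
log2 of TPM over the control mean for Cox6b2 (black) and the 5 of the compared genes most similar to it, in 4 control and 4 cKO libraries. Genes are set slightly apart sideways. Cox6b2 is the highest point in each cKO library, and the 5 genes were chosen for their likeness to it over these 8 libraries.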

How the data were processed

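RNA sequencing of 4 cKO and 4 control libraries was read from the authors' deposited table of TPM values, 52778 rows with 1 column per library. The submitters' processing notes name FastQC, Trim Galore 0.6.7, HISAT2 2.2.1, StringTie 2.2.1, featureCounts and DESeq2 with GRCm38, without saying which step made this table, and the annotation and strand setting are not given in the sources used here. Columns were mapped to samples by the group and number in their names. TPM keeps no depth, so no counting error could be given, and precision is that between libraries.

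Rows with a mean of at least 1 TPM (15541) were fitted as log2(TPM + 1) with limma 3.58.1 in R 4.3.3 (lmFit, eBayes with a trend, group as the only term, two-sided), with Benjamini-Hochberg adjustment over all rows tested. Fold changes on this scale understate changes of low genes. Shares and sums of a pair were compared by exact two-sided permutation over the 70 assignments of 8 libraries. Simulated data were used to test the procedure. Members, lists and tests were chosen with earlier results of these data known. Named genes were the members, Rps19bp1, neighbours of Cox6b2, mt-Co1 to mt-Co3, Sco2, the called genes of each pathway list (or its 3 with the smallest p) and the 5 most similar to Cox6b2. Those 5 were sought without predicted-gene, RIKEN and pseudogene symbols and on primary chromosomes only. Markers of cell types, the 5 hypoxia genes other than Lonp1, Itgad, Bcl2l1, Tmem30a and the untested genes were named after their values were seen. Alternatives were 2 other pseudocounts, 2 other filters, 3 scalings, eBayes without a trend, array weights, a replicate block and leaving out each library.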

Additional observations from a re-analysis of the deposited data

Results flagged for a closer look

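Of 40 groups of 4 values examined among the members' levels, shares and sums, 2 held a library far from the other 3 by the gap to the next value over the range, which chance gives in about 1 of 20 groups. Cox8b in control replicate 1 stood at 13.4 TPM, below the 19.6 to 20.1 TPM of the other controls. The Cox6a2 share in control replicate 3 was 19.97%, above 19.1% to 19.2% in the other controls, a gap of under 1 percentage point in a tight group.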

How the results depend on the processing

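The number of called rows, 994, was 347 with no filter on low values, 609 with eBayes without a trend, 420 with the replicate block and 390 to 938 when single libraries were left out. Same-numbered libraries did not deviate together (r -0.09 to 0.07). These are deviations from means of 4 libraries, so they cannot decide whether the numbers pair the libraries. The log2 change of Cox6b2 stayed between 1.599 and 1.88 over 18 alternatives, and its share difference between 3.72 and 4.30 percentage points. Cox7a1 kept its log2 change of 0.17 but lost its call with no filter (adjusted p = 0.0526), without a trend (0.0847) and with the replicate block (0.113), and leaving out single libraries gave 0.15 to 0.18. Such omissions gave 0.19 to 0.41 for Cox6a2, -0.0028 to 0.061 for Cox4i1, -0.11 to 0.037 for Cox8a and -0.10 to 0.24 for Sco2. Cox7a2 was 0.0067 after quantile normalization, mt-Co2 then -0.097 and Sco2 -0.015, and Sco2 was -0.06, -0.10, -9.27e-05 and -0.10 without cKO replicates 1 and 3 and control replicates 1 and 2. The replicate block gave the Cox7a1 share difference of 3.28 points an exact sign-flip permutation p = 0.125, the smallest that test allows. Leaving out single libraries gave differences in share of 2.31 to 3.76 points for Cox7a1, 3.54 to 7.50 for Cox6a2 and 0.344 to 0.875 for Cox8b, and in summed TPM -96.4 to 16.3 for Cox6a, -96.6 to 32.8 for Cox8 and -1.67 to 49.9 for Cox4. The summed Cox7a pair passed (17.6 TPM) when rescaled without mitochondrial and globin rows. The causes were not tested. Depth is unknown, and intervals of low members such as Cox4i2 are wide.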
